A study of Mus musculus with 6 samples.

Results

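The vessel-lining cells of the heart were followed here through 10 of the 18193 genes that have a probe set of their own on the array: 8 endothelial genes (Pecam1, Cdh5, Kdr, Tek, Vwf, Flt1, Nos3 and Emcn) and 2 growth factor genes, Vegfa and Vegfb. Every probe set whose only annotated symbol was one of these genes was taken, which gave 15 of the 45101 probe sets of the array: 4 for Flt1, 2 each for Cdh5 and Vegfa, and 1 for each of the other 7 genes. Total RNA of whole mouse hearts had been hybridised to Affymetrix arrays, 2 per group and 6 in all. The treated apoE-deficient group carried apolipoprotein E deficiency on a B6 background and, from 6 months of age, had been given rosiglitazone (30 mg/kg daily) over 2 months; its hearts are labelled as failing. The untreated apoE-deficient group carried the same deficiency and had received no drug. The B6 group was wild type and untreated. All mice were 8 months old and ate the same chow with 7% fat and 0.15% cholesterol. Rosiglitazone, an antidiabetic drug, activates the nuclear receptor PPAR gamma. Drug and heart failure came together in the treated group and cannot be told apart, and no wild-type mice given the drug were analysed here.

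Endothelial cells line every blood vessel and, in the heart, form a dense capillary bed around the muscle cells. VEGF-A, the main vessel growth factor, signals mostly through the receptor VEGFR2, the product of Kdr. VEGFR1, the product of Flt1, binds VEGF-A, VEGF-B and placental growth factor and has a soluble form that traps them. The other genes mark the same cells: Pecam1 and Cdh5 encode adhesion proteins of endothelial junctions, Tek the angiopoietin receptor TIE2, Vwf the clotting protein von Willebrand factor, Nos3 the endothelial nitric oxide synthase and Emcn the surface sialomucin endomucin.

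The deposited signals had not been brought to a common brightness: 2%-trimmed means were 263 to 341 for treated, 126 to 130 for untreated apoE-deficient and 149 to 175 for B6 hearts, so brightness and group went together. Signals below are therefore quantile-normalized, in arbitrary units, and a difference is one of log2(signal + 11.1), given ± its SE in the limma fit (n = 2 per group). To pass, a probe set needed an adjusted p (Benjamini-Hochberg, over 27022 tested probe sets) under 0.05. All 15 vessel probe sets were bright enough to be tested, with mean signals between the 67.2nd and the 98.2nd percentile. Whether the 2 arrays of a group stand for separate animals is not in the labels, and p-values cover the spread between these arrays alone, which may be technical. Results were recomputed under 16 alternative settings, among them spike-in scaling, which divides each array by the geometric mean of its 18 hybridization control probe sets. Apoe was lower in both apoE-deficient groups than in B6, by −6.12 ± 0.27 (adjusted p = 6.45e-06) untreated and by −5.66 ± 0.27 (adjusted p = 3.39e-06) treated. All 10 cardiomyocyte markers lay at or above the 99th percentile. In treated against untreated apoE-deficient hearts 2 of them (Tnnt2 and Pln) were higher and 5 (Myh6, Tnni3, Actc1, Myl2 and Mb) lower, with a median of −0.11, and their summed signal was 148892 to 155921 treated, 163787 to 164453 untreated and 166190 to 167054 in B6. These very bright genes depended on scaling: 0 were higher and 9 lower with spike-in scaling (median −0.78), and 0 and 10 with trimmed-mean (−0.96) or median (−0.89) scaling, while without the intensity trend 0 were called in either direction. Genes of 2 other tissues stood out on the treated arrays alone: the summed signal of 7 adipocyte markers, of which 6 were tested and 5 rose over untreated apoE-deficient hearts, was 14968 to 15250 on treated arrays, 1216 to 1245 on untreated apoE-deficient arrays and 1264 to 1292 on B6 arrays. That of 7 airway and lung markers was 14696 to 15505, against 108 to 138 and 117 to 126. Of the 6 airway and lung markers tested, 4 rose in treated over untreated apoE-deficient hearts, and the alveolar genes Sftpc and Sftpb, at no more than 63.1 and 44.5 on treated arrays, did not pass. Fat and lung are rich in vessels, and the part of such tissue in the vessel results below was not tested.

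Between treated and untreated apoE-deficient hearts, Kdr and 1 of the 4 Flt1 probe sets moved apart. Vegfb and 1 of the 2 Vegfa probe sets fell. The 250 bases before the transcription start are therefore shown for these 2 receptor genes and 2 ligand genes. They come from RefSeq on assembly GRCm38.p6, in which 6 of the 10 genes matched, and are written 5′ to 3′ on the gene's own strand, the minus strand for each. The windows are chr5:75978456-75978705 for Kdr, chr5:147726012-147726261 for Flt1, chr17:46032378-46032627 for Vegfa, which has 2 windows in the table, and chr19:6987652-6987901 for Vegfb. Capitals mark the letters ACGTG or GCGTG (cores of hypoxia response elements), GGAAGT (ETS core), TGACGTCA (cAMP response element), GGGCGG (GC box) and TATAAA, the letters of a TATA box. The PPAR direct repeat was searched too, and every motif on both strands.
Kdr: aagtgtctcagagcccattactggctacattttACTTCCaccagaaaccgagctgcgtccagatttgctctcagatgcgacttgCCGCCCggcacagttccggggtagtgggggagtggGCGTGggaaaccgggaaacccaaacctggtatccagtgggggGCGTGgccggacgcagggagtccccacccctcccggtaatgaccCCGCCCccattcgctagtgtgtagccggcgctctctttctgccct
Flt1: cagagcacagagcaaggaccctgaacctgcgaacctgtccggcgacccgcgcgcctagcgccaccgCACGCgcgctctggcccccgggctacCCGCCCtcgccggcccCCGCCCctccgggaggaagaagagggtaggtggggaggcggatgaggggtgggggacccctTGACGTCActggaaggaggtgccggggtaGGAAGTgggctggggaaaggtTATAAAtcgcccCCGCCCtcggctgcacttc
Vegfa: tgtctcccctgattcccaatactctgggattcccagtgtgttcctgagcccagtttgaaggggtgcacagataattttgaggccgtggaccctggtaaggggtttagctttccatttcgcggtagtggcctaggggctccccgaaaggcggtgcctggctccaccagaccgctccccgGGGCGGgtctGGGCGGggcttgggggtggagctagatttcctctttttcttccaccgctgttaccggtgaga
Vegfb: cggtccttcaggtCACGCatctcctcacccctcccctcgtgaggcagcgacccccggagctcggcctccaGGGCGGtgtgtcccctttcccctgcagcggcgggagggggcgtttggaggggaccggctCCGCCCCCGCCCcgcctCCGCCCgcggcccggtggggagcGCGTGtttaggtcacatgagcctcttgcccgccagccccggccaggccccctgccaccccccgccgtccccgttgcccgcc

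The Kdr window held GCGTG at 131 and 89 bases before the start, an ETS core at 217 and GC boxes at 166 and 45. The Flt1 window held the cAMP response element at 81 bases, an ETS core at 52 and a TATA box at 31 bases before the start, with 3 GC boxes and 1 GCGTG. The Vegfa window shown had GC boxes at 72 and 62 bases and neither hypoxia core. The other Vegfa window, chr17:46025164-46025413, held ACGTG at 211 and GCGTG at 218 bases before its start and a GC box at 158. Vegfb had 4 GC boxes and 2 GCGTG. Of the 32851 windows of the same length in the table, 1.55% held the cAMP response element, 12.4% the TATA box, 19.7% the ETS core, 28.2% GCGTG, 16.6% ACGTG and 32.7% the GC box. The PPAR direct repeat was in 0.0335% of windows and in none of the 7 windows of these genes. No matches of different motifs overlapped. A match describes letters in the window and does not show that a factor binds there.

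Comparing treated with untreated apoE-deficient hearts, the vessel genes did not move as a block. Kdr, Vwf, Emcn and Pecam1 rose, and Nos3, Vegfb, 1 of the 4 Flt1 probe sets and 1 of the 2 Vegfa probe sets fell, while Cdh5 and Tek did not pass. In all, 4 of the 15 probe sets rose and 4 fell, where 10% and 9.81% of all tested probe sets did so and 19.8% passed in either direction. The median difference of the 15 was −0.15, against −0.016 over all tested probe sets. The 15 probe sets stand for 10 genes, with 4 for Flt1, so counts and medians here and below weigh the genes unequally. In bulk tissue, fewer endothelial cells and less RNA of a gene per cell cannot be told apart. The groups did not overlap for 4 probe sets above and 7 below, where 28.6% and 31.4% of all tested probe sets were above and below without overlap.

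**Figure D1:**
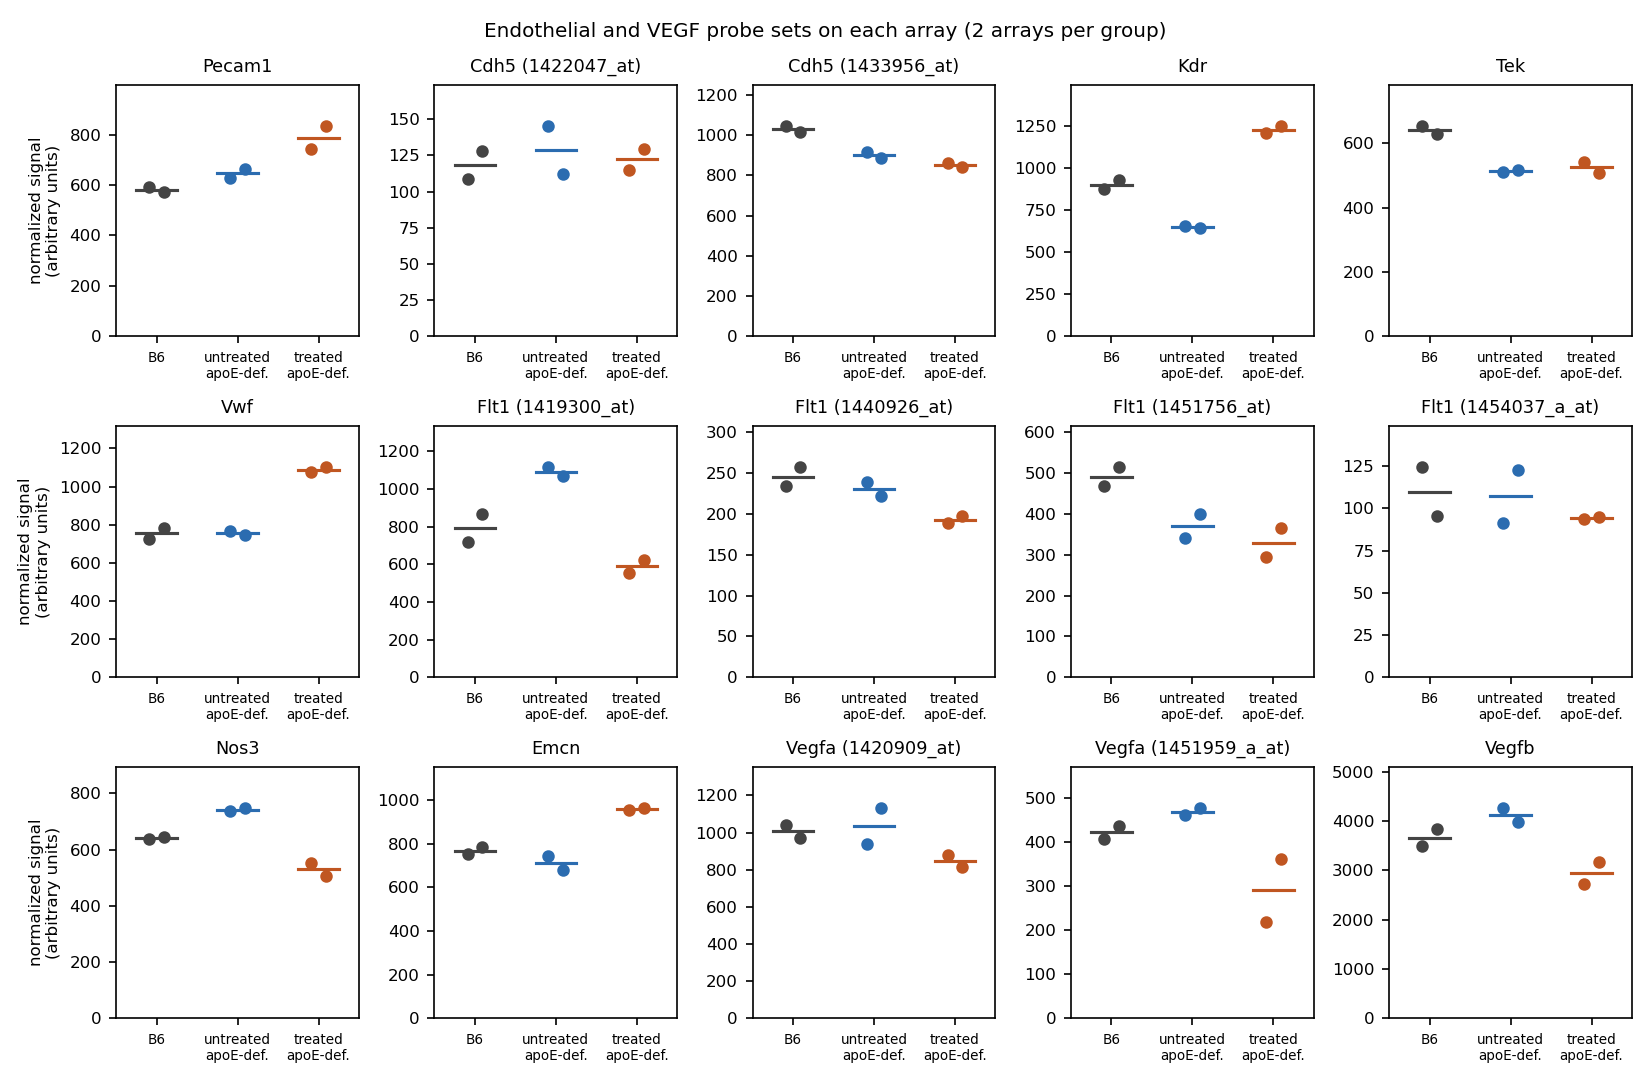
Quantile-normalized signal (arbitrary units, vertical axes from 0) of each of the 15 probe sets on each array, with 1 point per array and a bar at the mean of the 2 arrays of a group. Treated hearts read 1207 and 1247 for Kdr and untreated apoE-deficient hearts 657 and 642, while the Flt1 probe set 1419300_at was at 556 and 621 against 1113 and 1066.

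Kdr, the main signalling receptor for VEGF-A, had signals of 1207 and 1247 treated, 657 and 642 untreated and 875 and 929 in B6. The 3 groups did not overlap, with B6 in between. Treated hearts were above untreated apoE-deficient hearts by 0.91 ± 0.064 (adjusted p = 2.9e-05), which is 1.87-fold. A larger difference was seen in 1180 of the 27022 tested probe sets. Treated hearts also lay above B6, by 0.44 ± 0.064 (adjusted p = 0.0019), and untreated apoE-deficient hearts lay below B6, by −0.47 ± 0.064 (adjusted p = 0.0042).

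Flt1, the other VEGF receptor of this set, is read by 4 probe sets that did not give the same result. On 1419300_at the signals were 556 and 621 treated, 1113 and 1066 untreated and 718 and 866 in B6, again 3 groups without overlap but in the reverse order to Kdr. Treated hearts were below untreated ones by −0.88 ± 0.097 (adjusted p = 0.000346), or 1.84-fold lower, and 551 tested probe sets had a more negative difference. Untreated apoE-deficient hearts were above B6 by 0.46 ± 0.097 (adjusted p = 0.0253), and treated hearts were below B6 by −0.42 ± 0.097 (adjusted p = 0.0195).

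The second Flt1 probe set, 1451756_at, had signals of 294 and 365 treated, 342 and 401 untreated and 468 and 514 in B6. Its treated and untreated apoE-deficient arrays overlapped, and both groups were below B6 on every array. Its difference passed only between treated hearts and B6 (−0.57 ± 0.13, adjusted p = 0.0161), and for untreated apoE-deficient hearts against B6 it was −0.40 ± 0.13 (adjusted p = 0.101), opposite in sign to that of 1419300_at. Probe set 1440926_at was at 188 and 197 treated, 239 and 221 untreated and 234 and 257 in B6 and passed in none of the 3 comparisons, with adjusted p-values of 0.19, 0.71 and 0.101. The dimmest one, 1454037_a_at, ran from 91.5 to 124 over all arrays and did not pass either. Which Flt1 transcripts each probe set reads is not given in the sources used here.

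Vwf, stored in endothelial granules and secreted, had signals of 1075 and 1100 treated, 766 and 747 untreated and 726 and 783 in B6. Treated arrays lay above all 4 others, while untreated apoE-deficient and B6 arrays overlapped. The treated hearts were above the untreated apoE-deficient ones by 0.52 ± 0.067 (adjusted p = 0.00081) and above B6 by 0.52 ± 0.067 (adjusted p = 0.000949), and between the last 2 groups the difference was 0.0052 (95% interval −0.15 to 0.16). Vwf is also made by megakaryocytes, the parents of platelets. None of the 5 tested platelet markers passed between treated and untreated apoE-deficient hearts, with a median difference of −0.49. Pf4, a platelet chemokine, was at 1025 to 1116 treated and 1054 to 1120 untreated. The part of platelets in the Vwf signal was not tested.

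Emcn, a surface protein of capillary and venous endothelium, was at 956 and 962 on treated arrays, 745 and 681 on untreated ones and 752 and 787 on B6 ones. Here too the treated arrays were above all others, by 0.42 ± 0.070 over untreated apoE-deficient hearts (adjusted p = 0.0031) and by 0.31 ± 0.070 over B6 (adjusted p = 0.0165). The call against B6 was lost in 5 of 16 alternatives: without the intensity trend, where adjusted p was 0.147, and without either treated or either B6 array. Pecam1, a junction protein shared by endothelium, platelets and some leukocytes, was at 743 and 832 treated, 629 and 663 untreated and 591 and 573 in B6. The 3 groups were ordered without overlap, but the step from untreated to treated was small, at 0.28 ± 0.079 (adjusted p = 0.0371), and lost its call in 8 of 16 alternative settings. Its difference between treated hearts and B6 was 0.43 ± 0.079 (adjusted p = 0.00686).

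Cdh5, which encodes VE-cadherin of endothelial junctions, was measured by a bright and a dim probe set. The bright one, 1433956_at, was at 863 and 840 treated, 916 and 885 untreated and 1044 and 1015 in B6. Its groups did not overlap, yet only the difference between treated hearts and B6 passed, at −0.27 ± 0.061 (adjusted p = 0.0175), and spike-in scaling turned it to 0.042. Between treated and untreated apoE-deficient hearts it was −0.080 ± 0.061 (95% interval −0.22 to 0.059). The dim one, 1422047_at, overlapped between all groups, from 109 to 145, and passed nowhere.

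Tek signals were 542 and 509 treated, 511 and 516 untreated and 652 and 628 in B6. Both apoE-deficient groups thus lay below both B6 arrays and overlapped each other. The treated minus untreated difference was 0.031 ± 0.076 (95% interval −0.14 to 0.20), and against B6 the differences were −0.31 ± 0.076 untreated (adjusted p = 0.0426) and −0.28 ± 0.076 treated (adjusted p = 0.0373). Of 16 alternative settings the first of these lost its call in 10 and the second in 8, and under spike-in scaling the second turned to 0.051.

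Nos3, the enzyme that makes the vasodilator nitric oxide, fell where Vwf and Emcn rose. Its signals were 553 and 507 treated, 737 and 746 untreated and 638 and 643 in B6, without overlap between any 2 groups. Treated hearts were below untreated apoE-deficient hearts by −0.48 ± 0.074 (adjusted p = 0.00218). Against B6 the treated difference was −0.27 ± 0.074 (adjusted p = 0.0403), a call lost in 11 of 16 alternatives and turned to 0.063 by spike-in scaling, and the untreated one was 0.21 ± 0.074 (adjusted p = 0.137).

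Among the ligands, Vegfb, a factor abundant in heart muscle that binds VEGFR1, had signals of 2727 and 3163 treated, 4256 and 3979 untreated and 3491 and 3840 in B6. The treated arrays were the lowest and the untreated apoE-deficient arrays the highest, with no overlap. The treated level was below the untreated one by −0.49 ± 0.075 (adjusted p = 0.00205) and below B6 by −0.32 ± 0.075 (adjusted p = 0.0205). Untreated apoE-deficient hearts differed from B6 by 0.17 ± 0.075, which did not pass (adjusted p = 0.224). Cardiomyocyte markers, of which 5 of 10 were lower and 2 higher in treated than in untreated apoE-deficient hearts and 9 or 10 lower under the other 3 scalings, moved with the lower Vegfb signal, and their part in it was not tested.

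Vegfa was read by 2 probe sets. Probe set 1451959_a_at was at 219 and 363 treated, 462 and 477 untreated and 408 and 437 in B6. Treated arrays were below all others, but they were also far apart from each other, and the difference of −0.71 ± 0.19 from untreated hearts (adjusted p = 0.0274) was −0.37 without treated replicate 1 and no longer passed. It also lost its call without untreated replicate 1 or 2. Probe set 1420909_at was at 879 and 815 treated, 939 and 1130 untreated and 1042 and 970 in B6. Its difference between treated and untreated hearts had the same sign, −0.28 ± 0.092, but did not pass (adjusted p = 0.064), and neither Vegfa probe set passed in the comparison of treated hearts or of untreated apoE-deficient hearts with B6.

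**Figure D2:**
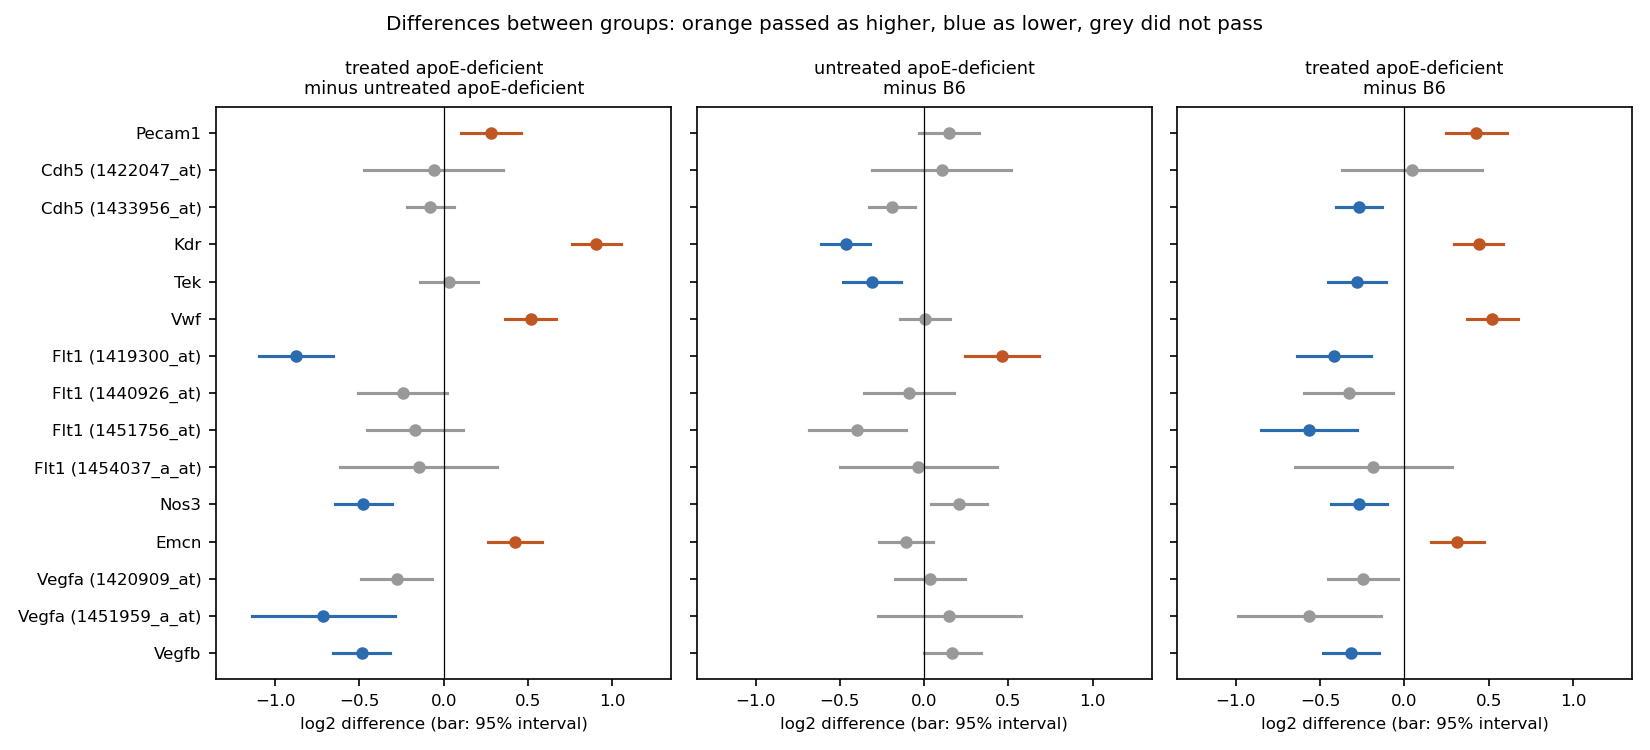
Difference of log2 signal (horizontal axis) for each probe set in the 3 comparisons, with a point at the limma estimate and a bar for its 95% interval; orange points passed as higher, blue as lower and grey did not pass. Kdr and the Flt1 probe set 1419300_at stand at 0.91 and −0.88 in the first panel and at −0.47 and 0.46 in the second.

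In untreated apoE-deficient hearts against B6 fewer probe sets passed, among these genes and over the array. Flt1 (1419300_at) rose, Kdr and Tek fell, and the other 12 probe sets did not pass. That is 1 of 15 higher and 2 of 15 lower, where 3.17% and 3.90% of all tested probe sets were called, 7.06% together. The median difference of the 15 was 0.0052, against −0.0064 over all tested probe sets. The groups did not overlap for 5 probe sets above and 5 below, where 24.3% and 25.9% of all tested probe sets were so. With each of the 6 arrays left out in turn, 0 to 1 were called higher and 1 lower. Flt1 1419300_at lost its call in 4 of 16 alternatives, among them without untreated replicate 1 or 2 (0.43 and 0.49) and without B6 replicate 1 (0.33). Kdr lost its call only when the variance was fitted without an intensity trend (adjusted p = 0.118).

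Against B6, treated hearts had 4 probe sets higher (Kdr, Vwf, Pecam1 and Emcn) and 6 lower (Flt1 1419300_at and 1451756_at, Vegfb, Tek, Nos3 and Cdh5 1433956_at). Over all tested probe sets 7.46% were higher and 7.58% lower, 15.0% together. The median difference of the 15 was −0.27, against −0.023 over all. Treated arrays lay above both B6 arrays for 4 of the 15 and below both for 10, where 26.4% and 31.1% of all tested probe sets did. Every Flt1 and Vegfa probe set was among the 10 below, so these are not 10 separate genes. The 3 comparisons share their groups in pairs and are not independent of each other. The lower calls depended on scaling: by spike-in scaling 0 of the 15 passed as lower. Vegfb and Flt1 1419300_at each lost their call against B6 in 4 of 16 alternatives and Flt1 1451756_at in 5, in each case also without treated replicate 1 and without B6 replicate 2; without treated replicate 1 their values were −0.22, −0.34 and −0.42.

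**Figure D3:**
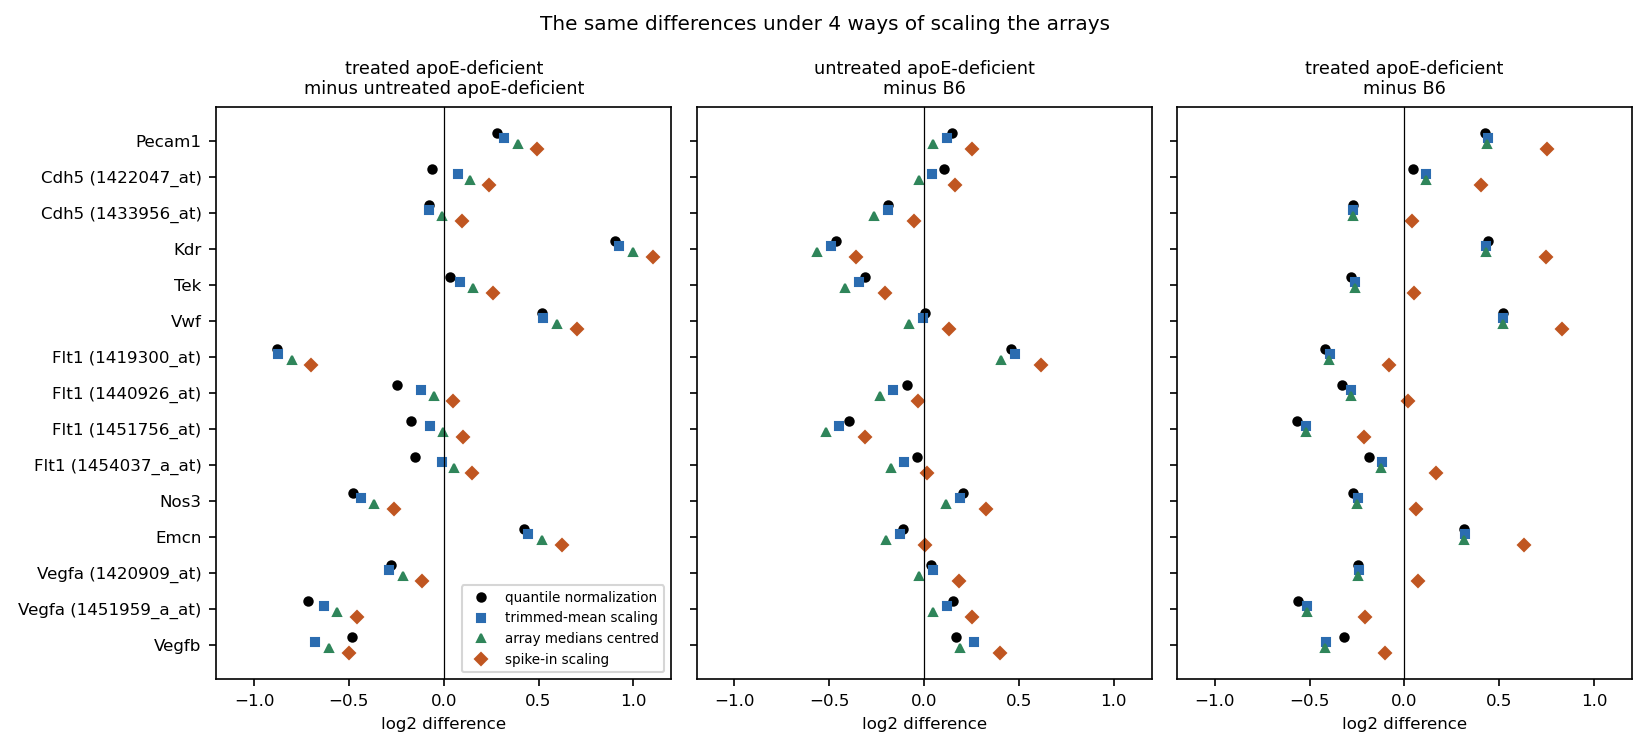
The differences of each probe set (log2, horizontal axis) under 4 scalings of the arrays: quantile normalization, trimmed-mean scaling, array medians centred and spike-in scaling. Kdr and Vwf lay above 0 and Flt1 1419300_at, Nos3 and Vegfb below 0 between treated and untreated apoE-deficient hearts under all 4, and the spike-in value of Tek in treated hearts against B6 was 0.051 where quantile normalization gave −0.28.

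In treated against untreated apoE-deficient hearts, Kdr (0.87 to 1.10), Vwf (0.50 to 0.70) and Flt1 1419300_at (−0.96 to −0.70) passed in each of 16 alternatives. Nos3, Emcn and Vegfb passed in 15 of 16. They were lost without the intensity trend, at adjusted p-values of 0.0546, 0.0695 and 0.084. With spike-in scaling the median of all differences moved from −0.016 to 0.18, and 79.6% of all calls were then higher, against 50.5%.

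In ratios of 2 probe sets on the same array, a brightness factor common to the whole array cancels. An array effect that varies with intensity, which quantile normalization alters, does not cancel. The ratios show unequal change and not which one moved. The log2 ratio of the deposited Kdr signal to that of Flt1 1419300_at was 1.08 and 0.99 on treated arrays, −0.80 and −0.77 on untreated apoE-deficient arrays and 0.29 and 0.10 on B6 arrays. The ratio was thus higher by 1.82 in treated than in untreated apoE-deficient hearts, and the untreated ones differed from B6 by −0.99, with no overlap in either case. This pair was chosen after its values were seen, so no test is given.

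Against the bright Cdh5 probe set, another way to set each gene beside an endothelial one, the log2 ratio was higher in treated than in untreated apoE-deficient hearts by 1.02 for Kdr, 0.61 for Vwf, 0.53 for Emcn, 0.40 for Pecam1 and 0.17 for Tek. It was lower, by −0.81 for Flt1 1419300_at, −0.60 for Vegfb, −0.37 for Nos3, and −0.57 and −0.21 for Vegfa 1451959_a_at and 1420909_at. In each of these 10 the 2 groups did not overlap, but all 10 share the same denominator. For single signals, 28.6% and 31.4% of all tested probe sets were above and below without overlap. No such share was computed for ratios. The other 3 Flt1 probe sets overlapped, with differences of −0.045, 0.0049 and 0.069. Between treated hearts and B6 the ratios of Tek and Nos3 overlapped, with differences of 0.0096 and 0.021. Those of Vegfb (−0.14), Flt1 1419300_at (−0.13) and Vegfa 1451959_a_at (−0.26) and 1420909_at (0.030) overlapped there too. The ratio of Flt1 1451756_at was below B6 without overlap (−0.26). Those of Kdr (0.71), Vwf (0.80), Emcn (0.59) and Pecam1 (0.72) were above B6 without overlap.

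**Figure D4:**
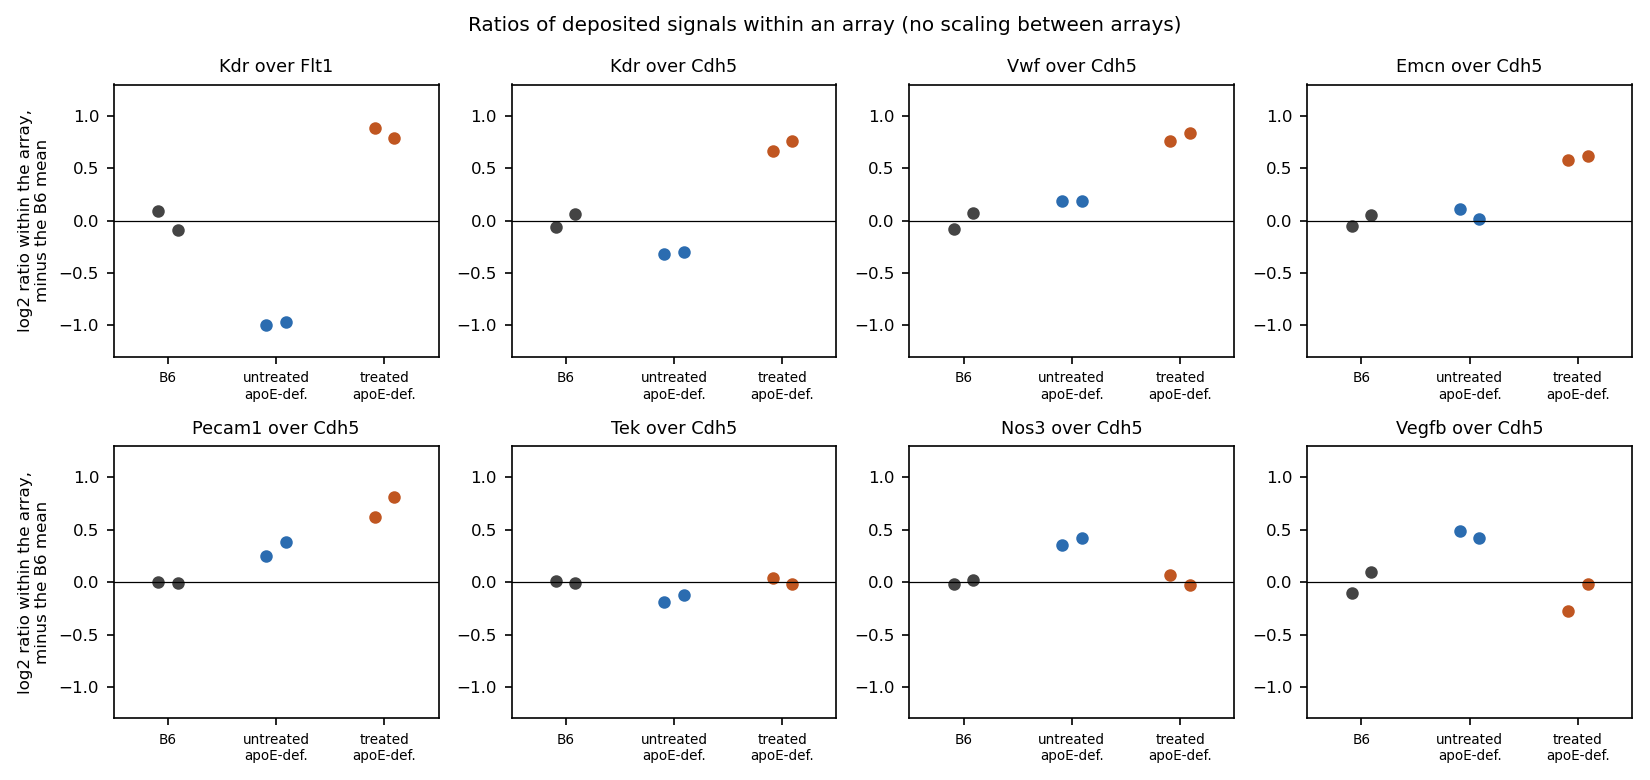
Log2 ratio of 2 deposited signals on the same array, minus the mean of the 2 B6 arrays (vertical axis), with 1 point per array, for Kdr over Flt1 1419300_at and for Kdr, Vwf, Emcn, Pecam1, Tek, Nos3 and Vegfb over Cdh5 1433956_at. Treated arrays are above and untreated apoE-deficient arrays below B6 in the first panel, and Nos3 and Vegfb over Cdh5 are highest on the untreated apoE-deficient arrays.

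A list of 26 other endothelial genes was read in the same way. The part of other cell types, and of fat and lung tissue, in their signals was not tested. In treated against untreated apoE-deficient hearts 12 rose and 3 fell, with a median difference of 0.24 against −0.016 over all tested probe sets; 19 rose with spike-in scaling and 5 without the intensity trend. Cldn5, which seals endothelial tight junctions, rose by 1.91 ± 0.12 (adjusted p = 1.24e-05), from 208 to 242 untreated to 837 to 907 treated, and Fli1, an ETS transcription factor, by 1.31 ± 0.13 (adjusted p = 0.000172). Gpihbp1, which holds lipoprotein lipase on capillaries, rose by 0.67 ± 0.054 (adjusted p = 6.03e-05). Sox7, a transcription factor of endothelium, fell by 0.98 (SE 0.089, adjusted p = 0.000123). Klf2, a factor induced by blood flow, fell by 0.76 (SE 0.051, adjusted p = 2.05e-05), from 1666 to 1675 untreated to 981 to 982 treated. Over all tested probe sets 3.17% rose and 3.90% fell in untreated apoE-deficient hearts against B6. Of the 26 genes, 3 rose there (Sox7, Gpihbp1 and Eng) and 3 fell (Fli1, Cldn5 and Cd93). Those counts were 0 and 0 without the intensity trend, 0 and 2 without untreated replicate 1 or B6 replicate 1, and 1 and 1 without untreated replicate 2 or B6 replicate 2. In treated hearts against B6, 13 rose and 3 fell, where 7.46% and 7.58% of all tested probe sets did. With spike-in scaling 19 rose and 1 fell, and without the intensity trend 2 and 1. Without B6 replicate 2 the median difference went from 0.26 to 0.18.

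Further genes of the VEGF, angiopoietin and Notch pathways were tested in 22 of 23 cases. Between treated and untreated apoE-deficient hearts 6 rose and 3 fell, with a median of 0.091. Without treated replicate 1 the counts were 4 and 0 and the median 0.012, without untreated replicate 1 they were 6 and 1, and with spike-in scaling 8 and 1, with a median of 0.28. The ligand genes went different ways: Vegfd rose by 1.39 ± 0.26 (adjusted p = 0.00526), and Angpt1, whose product activates TIE2, by 0.42 ± 0.081 (adjusted p = 0.00652). Pgf, placental growth factor and a ligand of VEGFR1, fell by 0.95 (SE 0.21, adjusted p = 0.0118). Tie1, the partner receptor of TIE2, fell by 0.41 (SE 0.084, adjusted p = 0.00948). Hif1a, the oxygen-regulated factor upstream of Vegfa, rose by 0.43 ± 0.064 (adjusted p = 0.00174). Without the intensity trend 0 of the 22 passed. In untreated apoE-deficient hearts against B6, 0 rose and 5 fell in this list: Jag1 (−0.99), Aplnr (−0.90), Vegfc (−0.81), Angpt1 (−0.56) and Nrp1 (−0.35). Of these, Vegfc passed in 7 of 16 alternatives. Over all tested probe sets 3.17% rose and 3.90% fell in this comparison. Here too 0 of the 22 passed without the intensity trend. With spike-in scaling 2 rose and 4 fell there, and 2 fell without B6 replicate 1 or 2.

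Around Nos3, 10 of 13 nitric oxide genes were tested, of which 1 was higher and 2 lower in treated than in untreated apoE-deficient hearts, near the shares of the whole array. This balance turned with scaling, to 5 higher and 1 lower with spike-in scaling and 4 and 1 with trimmed-mean or median scaling, and it was 1 and 0 without the intensity trend. Gucy1a1, a subunit of the nitric oxide receptor guanylate cyclase, rose in treated over untreated apoE-deficient hearts by 0.74 ± 0.10 (adjusted p = 0.00117). Slc7a1, which carries arginine into cells, fell by 0.48 (SE 0.073, adjusted p = 0.00189), and Gch1, needed for the synthase cofactor, by 0.44 (SE 0.12, adjusted p = 0.0347), a call kept in 8 of 16 alternatives. The other 7 did not pass. Slc7a1 was also the 1 gene of the list that passed in untreated apoE-deficient hearts against B6, at −0.55 ± 0.073 (adjusted p = 0.00344).

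Of 14 hypoxia-induced genes, 3 were higher and 3 lower in treated than in untreated apoE-deficient hearts, with a median of 0.053. The balance depended on scaling: 3 were higher and 7 lower with trimmed-mean scaling (median −0.26), 3 and 6 with centred medians (−0.19), and 5 and 4 with spike-in scaling (−0.084). With single arrays left out, 1 to 3 were higher and 2 to 3 lower, and without the intensity trend 0 were higher and 1 lower. Hmox1 (0.82), Ndrg1 (0.50) and Pgk1 (0.15) were higher and P4ha1 (−1.10), Pdk1 (−0.32) and Ddit4 (−0.24) lower, and Pgk1 turned negative under spike-in, trimmed-mean and median scaling. P4ha1, a collagen hydroxylase, rose by 0.99 ± 0.088 in untreated apoE-deficient hearts over B6 (adjusted p = 0.000439). In that comparison 2 of the 14 genes were higher and 1 lower, where 3.17% and 3.90% of all tested probe sets were. The counts were 7 and 0 with spike-in scaling (median 0.23), and 0 and 0 without the intensity trend.

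Endothelial activation genes were tested in 7 of 9 cases. Selp, the P-selectin of endothelium and platelets, rose by 2.01 ± 0.35 (adjusted p = 0.00378) between untreated and treated apoE-deficient hearts, Plat, tissue plasminogen activator, by 0.98 ± 0.078 (adjusted p = 5.75e-05), and Vcam1, a leukocyte adhesion molecule, by 0.44 ± 0.10 (adjusted p = 0.0167). The Selp difference ran from 0.96 to 3.03 over the alternatives and lost its call without treated replicate 2. Ccl2, a monocyte chemokine, fell by 0.93 (SE 0.27, adjusted p = 0.0419), a call lost in 9 of 16 alternatives, among them all 3 other scalings. In untreated apoE-deficient hearts against B6, Icam1 and Vcam1 rose and Selp fell by 1.44 (SE 0.35, adjusted p = 0.041), a call kept in 4 of the 14 alternatives in which it was tested. Icam1 kept its call in 13 of 16 and Vcam1 in 11; without B6 replicate 2, and without the intensity trend, 0 genes of the list were called in either direction. Macrophage markers moved in the same comparison: Cd68 (0.93), Adgre1 (0.96) and Lyz2 (0.58) rose and Csf1r (−0.26) fell. That is 3 and 1 of 5, with a median of 0.58, where 3.17% and 3.90% of all tested probe sets rose and fell. The counts were 3 and 0 with spike-in or trimmed-mean scaling, and 0 and 0 without the intensity trend. The summed signal of these markers was 7410 to 7566 untreated and 5968 to 6196 in B6. Their part in the adhesion genes was not tested.

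**Figure D5:**
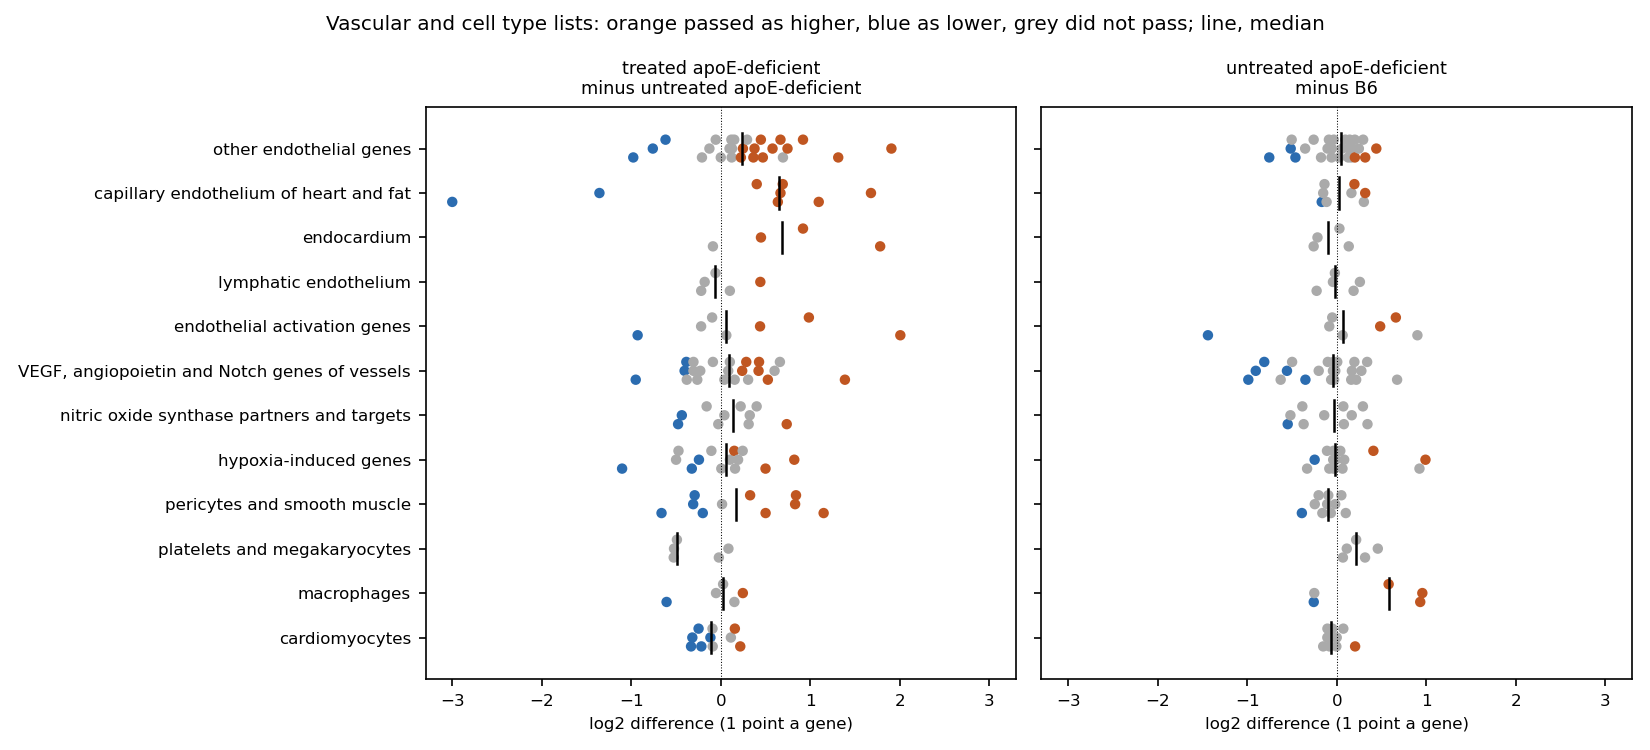
Log2 differences (horizontal axis) of the genes of the vessel lists and cell type lists, 1 point a gene, with a line at each list's median, in treated against untreated apoE-deficient hearts (left) and in untreated apoE-deficient hearts against B6 (right); orange points passed as higher, blue as lower and grey did not pass. Other endothelial genes have a median of 0.24 on the left and 0.045 on the right.

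Markers of single vessel compartments varied within each list; Gpihbp1 and Plvap each stand in 2 lists. All 8 capillary genes of heart and fat passed in treated against untreated apoE-deficient hearts, 6 higher and 2 lower, with a median of 0.65. Over all tested probe sets 19.8% passed in this comparison. Car4, a carbonic anhydrase of capillary walls, rose by 1.68 ± 0.10 (adjusted p = 1.3e-05) and Fabp4, a fatty acid carrier of capillaries and fat cells, by 1.09 ± 0.047 (adjusted p = 1.48e-06). The water channel gene Aqp1 went from 4859 to 4874 untreated down to 580 to 616 treated, a difference of −3.00 ± 0.048 (adjusted p = 5.72e-09), and the transcription factor Tcf15 had a difference of −1.36 ± 0.13 (adjusted p = 0.000183). Cd36 was higher by 0.40 with quantile normalization and lower under trimmed-mean and median scaling. Of 4 endocardial genes 3 rose, led by Npr3 at 1.78 ± 0.078 (adjusted p = 1.63e-06), and of 5 lymphatic genes 1 rose, Pdpn, which lung also expresses. Without the intensity trend 2 of the 4 endocardial and 0 of the 5 lymphatic genes rose. Of the 8 capillary genes, 3 were then higher and 2 lower. Each of the 3 other scalings gave 5 higher and 2 lower capillary genes. Their medians were 0.64 with spike-in scaling, 0.46 with trimmed-mean scaling and 0.53 with centred medians.

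Markers of the cells around the vessels also changed. Of 10 pericyte and smooth muscle markers 5 rose and 4 fell between untreated and treated apoE-deficient hearts. The contractile genes Cnn1 (1.15), Acta2 (0.84), Tagln (0.83) and Myh11 (0.50) rose together with Pdgfrb (0.33). Kcnj8 (−0.66), Notch3 (−0.31), Abcc9 (−0.29) and Rgs5 (−0.20) fell, and 1 gene did not pass. Without the intensity trend 3 rose and 1 fell. The list did not separate pericytes from smooth muscle, so neither cell type was tested alone. In untreated apoE-deficient hearts against B6 only Pdgfrb of these 10 passed, at −0.39 ± 0.073 (adjusted p = 0.016), and it lost its call without any one of the 4 arrays compared and without the intensity trend, leaving 0 of the 10 called in each of these settings.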

How the data were processed

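Heart RNA was read on Affymetrix arrays as biotinylated cRNA, per the labels' protocols. The deposited values are linear intensities, 1 for each probe set on an array, which the authors made with GCOS per the submitters' processing notes; of its version and settings nothing is given in the sources used here. From 45101 probe sets, 64 controls were left out. Linear signals of the other 45037 were quantile-normalized, a pseudocount of 11.1 (the 25th percentile) was added and log2 taken. The 27022 probe sets whose mean log2 signal exceeded the 40th percentile (4.99) entered limma 3.58.1 under R 4.3.3 (lmFit, eBayes with an intensity trend) in 1 fit of 3 groups, with 3 residual and 5.97 prior degrees of freedom. Fold changes are on the log2(signal + pseudocount) scale and understate changes of dim genes. The number of arrays limits precision. Array annotation, which can be old, gave 1 symbol for 34945 probe sets. For 34754 the gene was found in a gene table of GRCm38.p6, whose symbol was taken whether or not it differed. In further lists the brightest probe set by mean stands for a gene (13236 genes tested). The fit was checked on simulated data. Named genes are the members, up to 4 genes of each list with the smallest p in a comparison, others that passed and the 3 nearest profiles of a member; which to describe was chosen after values were seen. The members, lists and tests were chosen with earlier results of these data known. Alternatives varied scaling, pseudocount, filter, variance model, arrays in the fit, replicate block and each array left out.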

Additional observations from a re-analysis of the deposited data

How the results depend on the processing

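Each result was recomputed under 16 alternatives; over the 45 differences of the 15 probe sets, 599 values kept direction and side of the threshold, 78 lost a call, 9 gained one and 34 changed sign. Where no cause is named, the cause was not tested. Without the intensity trend in the variance, calls among the 15 were 2 higher and 1 lower between treated and untreated apoE-deficient hearts, 0 and 0 between untreated apoE-deficient hearts and B6, and 0 and 0 between treated hearts and B6, with 1653, 10 and 626 probe sets called over the array, against 5355, 1909 and 4066. With spike-in scaling the calls among the 15 were 3 higher and 1 lower between untreated apoE-deficient hearts and B6 and 0 lower between treated hearts and B6, with 3039 and 7604 called over the array. The medians of all differences then were 0.18, 0.11 and 0.28, and 79.6%, 80.9% and 92.5% of calls were higher, against 50.5%, 44.8% and 49.6%; with array medians centred the shares were 64.7%, 25.7% and 45.8%. Without the filter on dim probe sets, or with only the arrays of the groups compared, 1 was lower between untreated apoE-deficient hearts and B6.

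Leaving out each array in turn, where the lone array of a group is assumed to vary like the other groups, calls among the 15 in treated against untreated apoE-deficient hearts ran from 3 to 4 higher and from 3 to 4 lower, and 2933 (without treated replicate 1) to 5018 probe sets were called. For untreated apoE-deficient hearts against B6 the range was 0 to 1 higher and 1 to 1 lower, with 617 to 1730 called, the fewest without B6 replicate 2 (617), B6 replicate 1 (641), untreated replicate 1 (878) and untreated replicate 2 (964). For treated hearts against B6 it was 2 to 4 higher (2 without treated replicate 2 or B6 replicate 2) and 0 to 5 lower (0 without treated replicate 1 or B6 replicate 2, 2 without B6 replicate 1), with 2205 to 4104 called, 2275 of them without treated replicate 1 and 2624 without B6 replicate 1.

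Differences that changed sign were these. In treated against untreated apoE-deficient hearts, spike-in scaling gave 0.24 for Cdh5 1422047_at, 0.097 for Cdh5 1433956_at, 0.051 for Flt1 1440926_at, 0.10 for Flt1 1451756_at and 0.15 for Flt1 1454037_a_at; trimmed-mean scaling gave 0.074 for Cdh5 1422047_at, and centred medians 0.14 for it and 0.055 for Flt1 1454037_a_at. In untreated apoE-deficient hearts against B6, spike-in scaling gave 0.016 for Flt1 1454037_a_at and 0.0075 for Emcn, trimmed-mean scaling −0.0061 for Vwf, and centred medians −0.028 for Cdh5 1422047_at, −0.080 for Vwf and −0.027 for Vegfa 1420909_at. In treated hearts against B6, spike-in scaling gave 0.042 for Cdh5 1433956_at, 0.051 for Tek, 0.019 for Flt1 1440926_at, 0.17 for Flt1 1454037_a_at, 0.063 for Nos3 and 0.072 for Vegfa 1420909_at. With single arrays left out, treated minus untreated values ran from −0.23 to 0.11 for Cdh5 1422047_at, from −0.013 to 0.076 for Tek and from −0.34 to 0.043 for Flt1 1454037_a_at. Untreated minus B6 values ran from −0.065 to 0.27 for Cdh5 1422047_at, from −0.049 to 0.060 for Vwf, from −0.23 to 0.16 for Flt1 1454037_a_at and from −0.096 to 0.16 for Vegfa 1420909_at, and treated minus B6 values from −0.065 to 0.15 for Cdh5 1422047_at.

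Replicate numbers did not pair the arrays: the correlations of replicate deviations between groups were 0.020, 0.033 and −0.0063. With the replicate number as a block, calls among the 15 were 4 higher and 4 lower, 1 and 3, and 4 and 7, and 5344, 1937 and 4103 probe sets were called over the array.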

Other observations

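For each probe set the genes with the most similar profile over the 6 arrays were found among 13236 genes, as the smallest root mean square distance between log2 profiles centred on their mean. Kdr lay nearest to Igfbp5 (0.029), which encodes a binding protein of insulin-like growth factors, then to Zfp788 (0.039) and Aoc3 (0.041). Vwf lay nearest to Ccn2 (0.030), a gene of matrix signalling, then to Tpm3 (0.037) and Cwc22 (0.046). Flt1 1419300_at lay nearest to Mon2 (0.053), Chd4 (0.059) and Fxr2 (0.061), and Nos3 to Ndufs4 (0.026), a gene of respiratory complex I, Gfm2 (0.027) and Fastk (0.035). Emcn lay nearest to Slco3a1 (0.028), Pecam1 to Mfap5 (0.034), Vegfb to Lmbrd1 (0.018) and Tek to Notch2 (0.023). No member was among the nearest genes of another. With 6 arrays in 3 groups, such distances mostly compare group means, and they carry no test.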
